A study of Mus musculus with 27 samples.

Results

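The differentiation of let-7Tg CD8 T cells into cytotoxic T lymphocytes (CTLs) was followed by comparing the 3 let-7Tg libraries of day 5 CTLs with the 3 let-7Tg libraries of cells activated for 12 h. The 6 libraries were chosen by their genotype and time labels alone, out of the 27 in the series, and all genes with enough reads were tested. The series measured RNA-seq in P14 CD8 T cells of wild type (WT), let-7Tg and lin28Tg mice when naive, after 12 h of activation and as day 5 CTLs, with 3 libraries in each of the 9 groups. P14 cells carry a transgenic T cell receptor that recognizes a single viral peptide, let-7Tg mice carry a doxycycline-inducible let-7g transgene in the Col1a1 locus, and lin28Tg mice express Lin28, a protein that blocks let-7 maturation. All of these mice were on a Rag2-/- background, of both sexes and 6 to 10 weeks old.

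The 12 h cells were stimulated with anti-CD3 (2 μg/mL) and anti-CD28 (5 μg/mL) antibodies. The day 5 cells were stimulated with soluble anti-CD3 (2 μg/mL) and irradiated splenocytes, received IL-2 (100 U/mL) at 48 h and were then kept for 3 more days. Doxycycline was present at 2 μg/mL in both cultures, and the mice had received it in the drinking water (2 mg/mL) for 4 days beforehand, so that the transgene was induced at both stages. The stage of the cells therefore cannot be told apart from the stimulus, the feeder cells, the cytokine or the library preparation. The study calls the 3 libraries of a group biological replicates. Col1a1, whose locus holds the transgene, was at 21.5, 62.8 and 37.7 FPKM at 12 h and 13.2, 17.8 and 9.06 FPKM at day 5. WT cells had 0.0839 ± 0.0149 FPKM of Col1a1 at 12 h and 0.270 ± 0.166 FPKM at day 5 (mean ± SD, n = 3), so that both sets of libraries carried the mark of the let-7Tg locus. Lin28b was at most at 0.0350 FPKM in the 6 libraries, against 10.9 ± 1.45 FPKM at 12 h and 19.4 ± 4.70 FPKM at day 5 in lin28Tg cells.

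MicroRNAs of the let-7 family pair through their seed, bases 2 to 8, with sites in the 3′ untranslated regions (3′ UTRs) of messenger RNAs and lower their stability and translation. In naive T cells let-7 is abundant and holds back activation, and its level falls after stimulation through the T cell receptor. A CD8 T cell that has met antigen first transcribes cytokines, chemokines and the machinery of growth, then divides many times and acquires granzymes, perforin and the receptors of an effector cell. Some of its progeny keep the transcription factors and homing receptors of memory cells.

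The RefSeq entries (GRCm38.p6) show what the transgene adds. The mature let-7g-5p, from the Mirlet7g locus at chr9:106178846-106178867 on the plus strand, is printed with related members, and the seed is in capitals.
mmu-let-7g-5p: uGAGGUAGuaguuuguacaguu
mmu-let-7a-5p: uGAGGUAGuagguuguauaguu
mmu-let-7i-5p: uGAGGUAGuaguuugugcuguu
mmu-miR-98-5p: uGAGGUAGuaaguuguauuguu
These share their seed, and a messenger RNA that pairs with it and has an A opposite the first base holds the letters CTACCTCA.

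The 6 libraries held 15254108 to 22647839 reads counted on genes, and 12787 of 35275 genes had enough reads to be tested. Along the first principal component of the 6, which held 90.4% of the variance, the stages separated. Replicate 2 at 12 h and replicate 3 at day 5 lay farther from their groups than the other libraries did. Cd3e, Cd8a, Cd8b1 and Trac marked all 6 libraries as CD8 T cells, with the 18 identity genes summing to 6264 to 7532 FPKM at 12 h and 6598 to 6955 FPKM at day 5. Summed markers of B cells were 39.3 to 81.1 FPKM at 12 h and 178 to 248 FPKM at day 5, nearly all of it Ighm, the heavy chain of IgM. Myeloid markers were 7.84 to 16.6 and 3.88 to 7.33 FPKM, and NK cell markers 17.9 to 40.6 and 20.4 to 48.6 FPKM. Markers of gamma delta T cells were 3.42 to 6.24 and 25.1 to 53.6 FPKM, mostly Tcrg-C1. Those of CD4 T cells were 4.88 to 7.51 and 12.8 to 24.7 FPKM, mostly Zbtb7b at day 5, where Cd4 itself was at most at 0.908 FPKM. Stromal markers were 6.36 to 10.6 and 20.5 to 35.4 FPKM, nearly all of it Pecam1, with Lum and Pdgfra at 0 in all 6 libraries. The part of other cells in the results was not tested. In bulk RNA, fewer cells of a type and less RNA in each cell cannot be told apart.

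Across all genes, 9388 of 12787 (73.4%) changed between 12 h and day 5 at an adjusted p below 0.05. Higher expression at day 5 was called for 4575 genes (35.8% of those tested) and lower expression for 4813 (37.6%). Of the called genes, 2463 were at least 2-fold higher (19.3% of those tested) and 1794 at least 2-fold lower (14.0%). The balance moved with the scaling, with 5307 higher and 4012 lower when no scaling was applied and 4066 higher and 5367 lower under quantile normalization. With a 2-fold change these were 2764 and 1385 and, under quantile normalization, 2052 and 2094. Changes of at least 16-fold were seen in 188 genes that were higher and 43 that were lower. The 3 libraries of one stage lay entirely above those of the other in 4620 genes that were higher at day 5 (36.1%) and 4751 that were lower (37.2%). The median log2 fold change over all tested genes was -0.02, and it was 0.13 with no scaling between libraries and -0.13 under quantile normalization. FPKM values are given as deposited, folds and overlaps after scaling between libraries. All folds are on the scale of log2(FPKM + 0.5), which understates the change of genes with low values, and the value after ± is the standard error. Each group of genes is to be read against these shares.

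**Figure D1:**
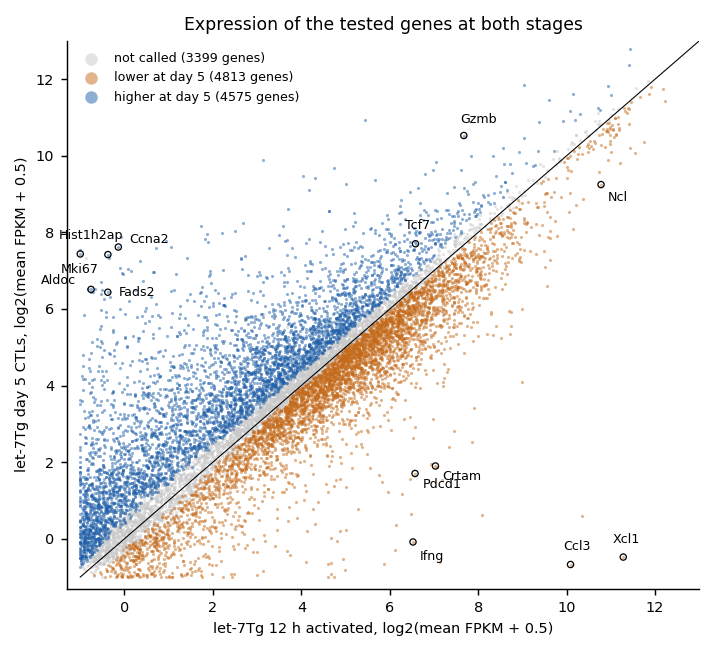
Mean expression of each of the 12787 tested genes in let-7Tg cells at 12 h (horizontal axis) and at day 5 (vertical axis), both as log2(mean FPKM + 0.5) over 3 libraries. Blue points were higher at day 5 (4575 genes), orange points lower (4813 genes) and grey points not called, and the line marks equal expression. Circled genes are named in the text, with Xcl1 and Ccl3 at the lower right and Mki67, Ccna2 and Hist1h2ap at the upper left.

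Among the gene lists, chemokines had the lowest median change and cytokines the next lowest. Of 10 tested chemokine genes 9 fell at least 2-fold and none rose, with a median log2 fold change of -4.53. Xcl1, the chemokine that attracts cross-presenting dendritic cells, was at 2005, 3254 and 2189 FPKM at 12 h and 0.0976, 0.169 and 0.387 FPKM at day 5 (log2 fold change -11.85 ± 0.58, adjusted p = 4.9e-14). Ccl3 and Ccl4, attractants of monocytes and effector T cells, followed it. Ccl3 was at 1099.8, 1173 and 986 FPKM at 12 h and 0.267, 0.115 and 0 FPKM at day 5 (log2 fold change -10.88 ± 0.54, adjusted p = 7.6e-14). Ccl4 was at 1062, 1674 and 1152 FPKM at 12 h and 0.619, 1.47 and 0.920 FPKM at day 5 (log2 fold change -9.90 ± 0.47, adjusted p = 2.9e-14). For each of these, all 12 h libraries lay far above all day 5 libraries. Ccl22, a ligand of Ccr4, was at 27.1, 49.8 and 17.01 FPKM at 12 h and 0, 0.202 and 0 FPKM at day 5 (log2 fold change -5.79 ± 0.36, adjusted p = 3.3e-12), with reads in replicate 2 alone at day 5. Ccl5, the chemokine of mature effector cells, was the member not called, at 14.4, 54.7 and 15.1 FPKM at 12 h and 15.1, 12.95 and 9.36 FPKM at day 5. For 9 of the 10, replicate 2 was the highest of the 12 h libraries.

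Among 15 tested cytokine genes, 9 fell (60.0%) and 5 rose (33.3%), beside 37.6% and 35.8% of all genes, and the median log2 fold change was -3.06. The share that rose is near that of all genes. Ifng, the macrophage-activating cytokine of type 1 responses, was at 90.5, 127 and 56.7 FPKM at 12 h and 0.0423, 0.658 and 0.629 FPKM at day 5 (log2 fold change -6.73 ± 0.49, adjusted p = 4.5e-11). Tnf was at 115, 229 and 123 FPKM at 12 h and 15.4, 31.2 and 12.7 FPKM at day 5 (log2 fold change -3.14 ± 0.44, adjusted p = 1.4e-06), and its highest 12 h library, replicate 2, was also the highest for Ifng. Lymphotoxin alpha (Lta) was at 108, 219.7 and 151 FPKM at 12 h and 12.3, 24.8 and 26.6 FPKM at day 5 (log2 fold change -3.06 ± 0.40, adjusted p = 4.9e-07). The groups did not overlap in any of the 3. Cytokines that rose were fewer. Il10, an inhibitory cytokine, had no read in any 12 h library and was at 3.00, 6.98 and 1.78 FPKM at day 5, at least 74.5-fold higher against a floor of 3 reads over the group (log2 fold change 2.90 ± 0.37, adjusted p = 3.7e-07). Osm, oncostatin M, was at 4.93, 7.10 and 4.15 FPKM at 12 h and 27.9, 37.7 and 24.4 FPKM at day 5 (log2 fold change 2.22 ± 0.21, adjusted p = 2.4e-09). Tgfb1 was at 123, 134 and 139.8 FPKM at 12 h and 242, 236 and 256 FPKM at day 5 (log2 fold change 0.72 ± 0.12, adjusted p = 1.4e-05). In Osm and Tgfb1 the day 5 libraries stood above the 12 h libraries without overlap.

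Transcription factors and feedback regulators that the T cell receptor induces within the first hours were also lower. Of 35 such genes 28 fell, 27 of them at least 2-fold, and 3 rose (median log2 fold change -1.82). Egr2, a zinc finger factor, and Fosl1, a subunit of AP-1, were among the 10 largest falls, with log2 fold changes of -6.05 and -5.93. Irf4, which scales with the strength of receptor signalling, was at 294, 282 and 299 FPKM at 12 h and 47.0, 34.7 and 37.7 FPKM at day 5 (log2 fold change -3.04 ± 0.16, adjusted p = 2.3e-13). Myc, the driver of growth and ribosome production, was at 531, 424 and 489 FPKM at 12 h and 162, 209 and 103 FPKM at day 5 (log2 fold change -1.82 ± 0.18, adjusted p = 8.6e-09). Nfkb1, the NF-kappaB subunit p105, was at 497, 661 and 563 FPKM at 12 h and 189, 192 and 168 FPKM at day 5 (log2 fold change -1.81 ± 0.10, adjusted p = 4.2e-13). None of these groups overlapped, and for Myc replicate 3 was the lowest at day 5. The 3 that rose were Ier3, Ikzf4 and Bhlhe40, with log2 fold changes of 2.19, 1.25 and 0.92. Bhlhe40 was at 57.9, 105 and 56.9 FPKM at 12 h and 183, 191 and 95.6 FPKM at day 5, and its groups overlapped, with replicate 2 at 12 h above replicate 3 at day 5. Its call was lost without either of the other replicates at either stage (log2 fold change 0.76 to 0.80). Egr1, which was singled out after its values were seen, did not pass the test and was at 50.5, 42.0 and 39.6 FPKM at 12 h and 26.6, 112 and 2.35 FPKM at day 5, with the day 5 libraries both above and far below those of 12 h.

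Effector proteins moved in both directions. Of 17 tested granule genes 8 rose (47.1%) and 5 fell (29.4%), beside 35.8% and 37.6% of all genes. Gzmb, granzyme B, the main protease of CTL granules, was at 386, 114 and 111 FPKM at 12 h and 1269, 1704 and 1449 FPKM at day 5 (log2 fold change 2.94 ± 0.54, adjusted p = 4.0e-05). Gzma, granzyme A, was at 1.08, 2.84 and 1.70 FPKM at 12 h and 78.2, 109 and 11.8 FPKM at day 5 (log2 fold change 4.24 ± 0.68, adjusted p = 7.3e-06). Prf1, perforin, which forms the pores that let granzymes in, was at 53.4, 67.2 and 41.9 FPKM at 12 h and 13.3, 17.2 and 11.4 FPKM at day 5 (log2 fold change -2.08 ± 0.26, adjusted p = 3.0e-07). Gzmb and Gzma were thus higher at day 5 while Prf1 was lower, each without overlap, and Gzma was several times lower in replicate 3 than in the other day 5 libraries. Ctsw, the cathepsin of cytotoxic cells, was at 23.5, 26.1 and 18.7 FPKM at 12 h and 207, 204 and 188 FPKM at day 5 (log2 fold change 2.95 ± 0.12, adjusted p = 1.2e-15). Serpinb9, the inhibitor that shields the cell from its own granzyme B, was at 96.5, 92.5 and 75.3 FPKM at 12 h and 15.01, 21.2 and 12.8 FPKM at day 5 (log2 fold change -2.58 ± 0.27, adjusted p = 1.9e-08). Srgn, serglycin, the proteoglycan that packs the granules, was at 870.5, 1045 and 893 FPKM at 12 h and 539.6, 555 and 370.1 FPKM at day 5 (log2 fold change -1.13 ± 0.14, adjusted p = 2.4e-07). The day 5 libraries thus held more granzyme message with less perforin, serglycin and Serpinb9 message than the 12 h libraries. Gzmk and Klrg1 had too few reads to be tested, with at most 0.238 FPKM of Gzmk in any library.

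**Figure D2:**
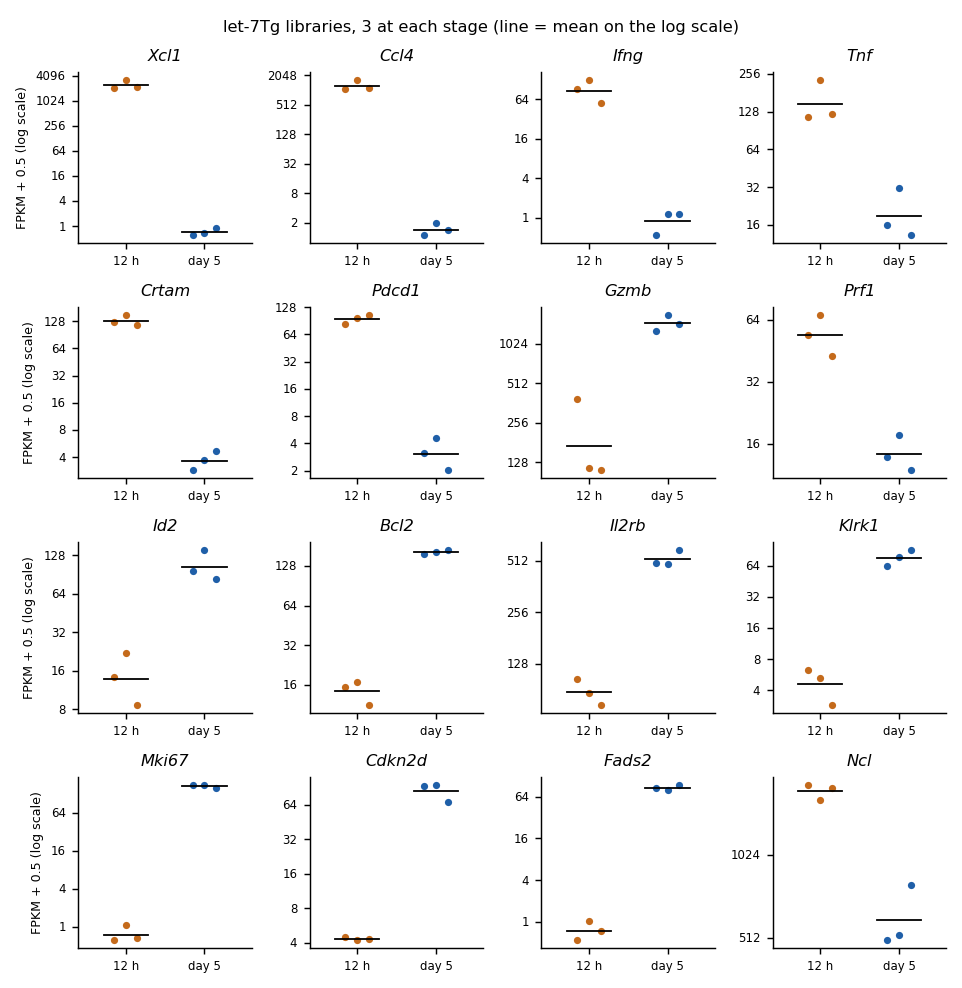
FPKM + 0.5 (log scale) of 16 genes in the 3 let-7Tg libraries at 12 h (orange) and the 3 at day 5 (blue), with a line at the mean on the log scale. In each panel the stages do not overlap, with Xcl1, Ccl4, Ifng, Tnf, Crtam, Pdcd1, Prf1 and Ncl lower at day 5 and the other 8 higher.

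Inhibitory receptors split into those that fell and those that rose. Of 17 tested, 8 fell (47.1%) and 5 rose (29.4%), beside 37.6% and 35.8% of all genes, with a median log2 fold change of -0.74. Pdcd1, which encodes PD-1, was at 82.4, 96.0 and 105 FPKM at 12 h and 2.67, 4.07 and 1.52 FPKM at day 5 (log2 fold change -5.10 ± 0.44, adjusted p = 7.9e-10). Its ligand gene Cd274, for PD-L1, was at 72.1, 116 and 75.3 FPKM at 12 h and 8.43, 10.6 and 6.41 FPKM at day 5 (log2 fold change -3.45 ± 0.23, adjusted p = 1.3e-11). Cd200 was at 106, 107 and 149 FPKM at 12 h and 4.70, 2.81 and 2.66 FPKM at day 5 (log2 fold change -5.14 ± 0.22, adjusted p = 5.4e-15). In these 3 each day 5 library was several times below each 12 h library. Ctla4, which competes with Cd28 for its ligands, was at 16.2, 7.59 and 8.34 FPKM at 12 h and 314, 259 and 154 FPKM at day 5 (log2 fold change 4.29 ± 0.42, adjusted p = 6.7e-09). Entpd1, the ectoenzyme CD39, was at 0.417, 0.433 and 0.176 FPKM at 12 h and 28.1, 36.4 and 15.9 FPKM at day 5 (log2 fold change 4.85 ± 0.40, adjusted p = 3.9e-10). Both rose without overlap, and in both day 5 replicate 3 was the lowest of its stage. Havcr2, which encodes TIM-3, was not called and was at 0.216, 3.69 and 0.614 FPKM at 12 h and 0.739, 0.858 and 0.327 FPKM at day 5, with 12 h replicate 2 the highest of the 6.

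Receptors of costimulation and of cytokines moved in both directions. Crtam, an adhesion receptor of newly activated CD8 T cells, was at 125, 151 and 115 FPKM at 12 h and 2.36, 3.19 and 4.14 FPKM at day 5 (log2 fold change -5.31 ± 0.22, adjusted p = 2.5e-15). Tnfrsf9, which encodes 4-1BB, was at 412, 422 and 282 FPKM at 12 h and 172, 177 and 149.9 FPKM at day 5 (log2 fold change -1.31 ± 0.18, adjusted p = 9.4e-07). Cd27 was at 498, 581 and 493 FPKM at 12 h and 203, 183 and 166 FPKM at day 5 (log2 fold change -1.67 ± 0.15, adjusted p = 2.4e-09). All 3 fell, whereas Cd2, Cd48, Tnfrsf4 (OX40) and Icos rose by 1.65, 1.32, 1.45 and 0.78 on the log2 scale. In all, 8 of 21 costimulatory receptors rose (38.1%) and 10 fell (47.6%), beside 35.8% and 37.6% of all genes. Among 26 cytokine receptors 14 rose (53.8%) and 8 fell (30.8%). Il2rb, the signalling chain shared by the IL-2 and IL-15 receptors, was at 104, 86.5 and 72.8 FPKM at 12 h and 499, 491 and 593 FPKM at day 5 (log2 fold change 2.42 ± 0.16, adjusted p = 6.5e-12). Ifngr1 was at 56.7, 62.5 and 31.0 FPKM at 12 h and 670.0, 758 and 562 FPKM at day 5 (log2 fold change 3.60 ± 0.21, adjusted p = 1.4e-12). Il12rb2 was at 20.2, 13.3 and 6.34 FPKM at 12 h and 83.8, 86.8 and 84.2 FPKM at day 5 (log2 fold change 2.61 ± 0.30, adjusted p = 8.1e-08). The day 5 libraries lay above the 12 h libraries in these 3. Il15ra, by contrast, was at 55.9, 104 and 56.6 FPKM at 12 h and 15.7, 17.5 and 16.6 FPKM at day 5 (log2 fold change -2.19 ± 0.16, adjusted p = 7.1e-11). Il7r, the receptor for the survival cytokine IL-7, was at 2.77, 14.4 and 1.14 FPKM at 12 h and 70.7, 65.8 and 24.7 FPKM at day 5 (log2 fold change 3.36 ± 0.64, adjusted p = 6.3e-05). Its groups did not overlap, though 12 h replicate 2 was several times above the other 12 h libraries and day 5 replicate 3 below the others of its stage.

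Homing receptors and lymphoid trafficking genes rose more often than they fell. Of 24 integrin and homing genes 14 rose and 5 fell, and of 14 chemokine receptor genes 7 rose and 2 fell. Over all genes 35.8% rose and 37.6% fell. In each list 5 genes were not called. Under the alternatives 13 to 15 integrin and homing genes rose and 4 to 7 fell. For chemokine receptors 6 to 8 rose and 1 or 2 fell. S1pr1, the receptor that lets T cells leave lymph nodes, was at 0.770, 3.72 and 0.389 FPKM at 12 h and 35.7, 20.1 and 24.4 FPKM at day 5 (log2 fold change 3.85 ± 0.57, adjusted p = 2.9e-06). Cxcr4 was at 1.91, 6.78 and 0.550 FPKM at 12 h and 99.7, 72.6 and 69.6 FPKM at day 5 (log2 fold change 4.78 ± 0.55, adjusted p = 6.2e-08). In both the day 5 libraries were higher, and 12 h replicate 2 held the most at that stage. Itgb7, an integrin chain of gut homing, was at 24.3, 29.0 and 18.7 FPKM at 12 h and 439, 348 and 333 FPKM at day 5 (log2 fold change 3.77 ± 0.13, adjusted p = 1.6e-16). It rose by more than the spread at either stage. Against these, Cd69, the early activation antigen that retains S1pr1 inside the cell, was at 237, 291 and 231 FPKM at 12 h and 31.2, 63.8 and 21.3 FPKM at day 5 (log2 fold change -3.00 ± 0.41, adjusted p = 9.2e-07). Ccr7, the receptor for lymph node chemokines, was at 234, 138 and 113 FPKM at 12 h and 54.7, 40.9 and 65.1 FPKM at day 5 (log2 fold change -1.71 ± 0.26, adjusted p = 4.1e-06). Both were lower in every day 5 library.

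Memory and quiescence genes were likewise divided. Of 34, 18 rose (52.9%) and 10 fell (29.4%), beside 35.8% and 37.6% of all genes (median log2 fold change 0.56). Tcf7, which encodes TCF1, a factor of stem-like memory cells, was at 115, 84.5 and 86.7 FPKM at 12 h and 237, 215 and 169 FPKM at day 5 (log2 fold change 0.95 ± 0.25, adjusted p = 0.0015). Bcl2, the survival protein, was at 14.8, 16.4 and 10.6 FPKM at 12 h and 157, 162 and 169.8 FPKM at day 5 (log2 fold change 3.36 ± 0.17, adjusted p = 1.0e-13). Klf2, the factor that drives S1pr1 transcription, was at 4.85, 12.8 and 2.59 FPKM at 12 h and 86.7, 43.8 and 95.4 FPKM at day 5 (log2 fold change 3.42 ± 0.50, adjusted p = 2.4e-06). In all 3 the day 5 libraries stood above the 12 h libraries. Foxp1, a factor of naive T cell quiescence, was at 280.3, 234 and 265 FPKM at 12 h and 68.2, 65.6 and 70.1 FPKM at day 5 (log2 fold change -2.09 ± 0.10, adjusted p = 7.9e-14). Slfn2, another quiescence gene, was at 281, 237 and 317 FPKM at 12 h and 103, 100.1 and 86.5 FPKM at day 5 (log2 fold change -1.69 ± 0.15, adjusted p = 1.6e-09). Both were lower in each day 5 library. Of the 14 genes that the study lists as memory genes, 8 rose and 4 fell. Of the 25 that it lists as terminal differentiation genes, 22 were tested, 8 rose and 8 fell (36.4% each), near the shares of all genes. Both lists were chosen by the study with these samples in view, so that their directions are no independent evidence.

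Effector lineage factors rose in 13 (44.8%) and fell in 9 (31.0%) of 29 tested, beside 35.8% and 37.6% of all genes. Id2, which restrains E proteins in effector cells, was at 13.7, 21.5 and 8.06 FPKM at 12 h and 95.3, 141 and 82.6 FPKM at day 5 (log2 fold change 2.74 ± 0.32, adjusted p = 8.1e-08). Prdm1, which encodes Blimp-1, was at 0.205, 0.543 and 0.165 FPKM at 12 h and 14.5, 11.7 and 6.65 FPKM at day 5 (log2 fold change 3.69 ± 0.23, adjusted p = 3.7e-12). Runx3, the factor that fixes the CD8 lineage, was at 56.9, 79.2 and 52.3 FPKM at 12 h and 245, 227 and 283 FPKM at day 5 (log2 fold change 1.84 ± 0.16, adjusted p = 1.2e-09). The stages did not overlap in any of the 3. Irf8 was at 249.9, 232 and 186 FPKM at 12 h and 55.0, 56.8 and 62.2 FPKM at day 5 (log2 fold change -2.09 ± 0.40, adjusted p = 6.3e-05). Eomes, a T-box factor of memory and effector cells, was at 28.9, 17.4 and 7.996 FPKM at 12 h and 15.9, 20.9 and 44.6 FPKM at day 5 and was not called, and its stages overlapped. The NK cell lectin receptors that CTLs acquire gave 5 genes that rose and 5 that fell of 16 tested. This was 31.25% each, beside 35.8% and 37.6% of all genes. The number that fell was 9 with no filter on low reads and 3 with a mean of at least 1 FPKM required. Klrk1, which encodes NKG2D, was at 5.74, 4.78 and 2.36 FPKM at 12 h and 63.3, 76.8 and 91.0 FPKM at day 5 (log2 fold change 3.92 ± 0.23, adjusted p = 1.5e-12). Klrd1, CD94, was at 82.0, 48.5 and 52.5 FPKM at 12 h and 351, 404 and 301 FPKM at day 5 (log2 fold change 2.38 ± 0.18, adjusted p = 1.2e-10). In both the day 5 libraries lay above the 12 h libraries.

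Genes of cell division had the highest median change among the lists. Of 61 mitosis genes 60 rose, 59 of them at least 2-fold, and none fell, with a median log2 fold change of 5.16 beside -0.02 over all genes. The median member was at 1.05 FPKM at 12 h and at 90.3 FPKM at day 5. Mki67, the proliferation marker Ki-67, was at 0.106, 0.553 and 0.154 FPKM at 12 h and 175, 178 and 159 FPKM at day 5 (log2 fold change 7.74 ± 0.22, adjusted p = 1.6e-17). Ccna2, cyclin A2, was at 0.427, 0.606 and 0.191 FPKM at 12 h and 186, 206 and 195 FPKM at day 5 (log2 fold change 7.67 ± 0.21, adjusted p = 1.6e-17). Top2a, the topoisomerase that untangles sister chromatids, was at 6.95, 6.46 and 11.3 FPKM at 12 h and 938, 1037 and 860.5 FPKM at day 5 (log2 fold change 6.63 ± 0.26, adjusted p = 8.5e-16). At 12 h Mki67 and Ccna2 were below 1 FPKM, while Top2a was already expressed, and all 3 were many times higher in each day 5 library. Pimreg had no read in any 12 h library and was at least 2061-fold higher at day 5, against a floor of 3 reads over the group. Ube2c, Cenpf, Bub1, Pclaf and the DNA glycosylase Neil3 were, like these, among the 10 largest rises, with log2 fold changes of 7.58, 7.24, 7.14, 7.86 and 7.09. The replication-dependent histones, which are transcribed in S phase and whose messages lack poly(A) tails, gave 27 of 28 tested genes that rose, and 41 of the 69 in the tables had too few reads to be tested. The median tested histone was at 0.156 FPKM at 12 h and 2.62 FPKM at day 5. Such genes could pass the filter on reads through the day 5 libraries alone, so that the count is not independent of the filter. Under the alternatives 20 to 40 rose and none fell. Hist1h2ap had no read at 12 h and was at 115, 153 and 249 FPKM at day 5, at least 1158-fold higher. Near-identical histone copies share reads, so that the value of a single copy is uncertain.

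Replication genes also rose, by less. Of 45, 39 rose and 2 fell, with a median log2 fold change of 1.03. The median member was at 19.1 FPKM at 12 h and 58.9 FPKM at day 5. Rrm2, a subunit of ribonucleotide reductase, was at 2.22, 2.60 and 3.66 FPKM at 12 h and 299, 303 and 262 FPKM at day 5 (log2 fold change 6.30 ± 0.22, adjusted p = 2.5e-16). Pcna, the sliding clamp of DNA polymerases, was at 384, 303 and 404 FPKM at 12 h and 515, 585 and 657 FPKM at day 5 (log2 fold change 0.52 ± 0.13, adjusted p = 0.0011). Mcm2, a subunit of the replicative helicase, was at 102, 83.7 and 139 FPKM at 12 h and 77.6, 80.6 and 99.5 FPKM at day 5 (log2 fold change -0.48 ± 0.15, adjusted p = 0.0062). In 44 of the 45 members replicate 3 was the highest of the 12 h libraries. Without it Mcm2 was not called (log2 fold change -0.25), and Pcna lost its call when 12 h replicate 2 and day 5 replicate 3 were left out together (0.25). Among 30 genes of the G1 phase, 18 rose and 6 fell. Cdkn2d, the CDK inhibitor p19, was at 4.02, 3.71 and 3.81 FPKM at 12 h and 93.2, 95.2 and 66.5 FPKM at day 5 (log2 fold change 4.12 ± 0.13, adjusted p = 5.1e-17). Ccnd3, cyclin D3, was at 53.2, 62.0 and 63.2 FPKM at 12 h and 287, 284 and 248 FPKM at day 5 (log2 fold change 2.02 ± 0.11, adjusted p = 6.0e-13). Ccnd2, cyclin D2, was at 155, 136 and 164 FPKM at 12 h and 58.7, 59.6 and 84.7 FPKM at day 5 (log2 fold change -1.35 ± 0.26, adjusted p = 7.3e-05). In FPKM, Ccnd2 was the higher of both at 12 h and Ccnd3 the higher at day 5.

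The promoters of these genes are shown because the mitosis genes moved together. RefSeq (GRCm38.p6) gave 55 promoters of 300 bases, from 250 before to 50 after the start, for 52 of the 61 mitosis genes. The letters TTTGAA on either strand, those of the cell cycle homology region (CHR), were in 76.4% of them, in 12.0% of the 12245 promoters of tested genes and in 17.9% of all 32841 promoters. The letters CCAAT on either strand were in 74.5% of the mitosis promoters and in 37.9% of those of tested genes. Both were together in 65.5% and 5.02%. Replication genes held TTTGAA in 15.9% of 44 promoters and TTCCCGC, letters of an E2F site, in 36.4%, beside 8.34% for tested genes. The promoters of Mki67 (chr7:135716330-135716629, minus strand) and Ube2c (chr2:164769679-164769978, plus strand) are given with TTTGAA and CCAAT, on either strand, in capitals. In the Ube2c promoter a pair of CCAAT matches on opposite strands overlap.
Mki67: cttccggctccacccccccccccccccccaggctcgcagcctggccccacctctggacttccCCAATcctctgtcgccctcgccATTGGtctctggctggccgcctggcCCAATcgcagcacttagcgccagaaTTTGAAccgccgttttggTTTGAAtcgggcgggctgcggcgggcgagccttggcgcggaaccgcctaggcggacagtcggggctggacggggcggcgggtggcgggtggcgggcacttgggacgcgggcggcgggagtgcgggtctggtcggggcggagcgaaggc
Ube2c: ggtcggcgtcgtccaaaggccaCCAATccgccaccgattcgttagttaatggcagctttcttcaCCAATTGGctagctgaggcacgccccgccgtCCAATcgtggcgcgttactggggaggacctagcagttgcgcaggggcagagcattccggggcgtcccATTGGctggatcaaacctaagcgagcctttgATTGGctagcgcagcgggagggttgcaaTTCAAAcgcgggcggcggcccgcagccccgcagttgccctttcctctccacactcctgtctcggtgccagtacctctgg
A match of letters is a description of the sequence and not a site shown to be bound.

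Genes of ribosome biogenesis went the other way. All 63 ribosome biogenesis genes fell, 60 of them at least 2-fold, with a median log2 fold change of -1.90. Npm1, nucleophosmin, was at 3286, 2382 and 3226 FPKM at 12 h and 1013, 1034 and 1158 FPKM at day 5 (log2 fold change -1.63 ± 0.12, adjusted p = 7.2e-11). Ncl, nucleolin, was at 1846, 1622 and 1789.6 FPKM at 12 h and 501, 525 and 793 FPKM at day 5 (log2 fold change -1.73 ± 0.17, adjusted p = 8.6e-09). Mybbp1a, a nucleolar protein, was at 781, 758 and 817 FPKM at 12 h and 115, 116 and 231 FPKM at day 5 (log2 fold change -2.60 ± 0.24, adjusted p = 3.1e-09). The stages did not overlap in any of the 63, beside 37.2% of all genes, and replicate 3 was the highest of the day 5 libraries in 62 of them. In Rrp1, Rrp9 and Rrp12, singled out after their values were seen, day 5 replicate 2 stood far below its group. Rrp1 was at 249.9, 275 and 273 FPKM at 12 h and 122, 7.92 and 148 FPKM at day 5, so that the size of its fall rests in part on that library. Under the alternatives 62 or 63 members fell. The letters CACGTG, an E-box, were in 18.8% of 64 promoters of these genes and in 10.0% of the promoters of tested genes.

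Translation genes also fell, by smaller steps. Of 37 initiation factors and 4E-BPs 34 fell (median log2 fold change -0.97), of 77 mitochondrial ribosome proteins 67 (-0.75), and of 20 cytosolic tRNA synthetases 18 (-1.09). Eif4a1, the helicase of the cap-binding complex, was at 2058, 1809 and 1982 FPKM at 12 h and 782, 856 and 1217 FPKM at day 5 (log2 fold change -1.23 ± 0.15, adjusted p = 2.3e-07). Eif4ebp1, the repressor 4E-BP1, was one of the 3 that rose, at 23.7, 20.0 and 26.2 FPKM at 12 h and 44.1, 37.4 and 38.98 FPKM at day 5 (log2 fold change 0.61 ± 0.17, adjusted p = 0.0028). Of 82 cytosolic ribosome proteins 61 fell and none rose, with a median log2 fold change of -0.36. Under the alternatives 30 to 70 fell, with the fewest in a fit of the 6 libraries with a replicate block and the most without 12 h replicate 2, and under quantile normalization 10 rose.

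Of 33 ATF4 targets and genes of amino acid supply, 17 fell and 8 rose. Slc1a5, the glutamine transporter, was at 771, 996 and 857 FPKM at 12 h and 231, 216 and 266 FPKM at day 5 (log2 fold change -2.04 ± 0.13, adjusted p = 8.0e-12). Slc7a5, the carrier of large neutral amino acids, was at 312, 345 and 340.3 FPKM at 12 h and 144, 141 and 265 FPKM at day 5 (log2 fold change -1.09 ± 0.22, adjusted p = 1.1e-04). Shmt2, a mitochondrial enzyme of one-carbon metabolism, was at 254, 259 and 274 FPKM at 12 h and 97.7, 91.3 and 143 FPKM at day 5 (log2 fold change -1.44 ± 0.14, adjusted p = 5.2e-09). Day 5 replicate 3 lay above the other day 5 libraries in all 3. Ddit4, an mTORC1 inhibitor, was at 12.5, 16.8 and 7.22 FPKM at 12 h and 236, 199 and 226 FPKM at day 5 (log2 fold change 4.03 ± 0.30, adjusted p = 6.1e-11). Asns, asparagine synthetase, was at 2.50, 7.92 and 5.92 FPKM at 12 h and 51.2, 41.9 and 33.8 FPKM at day 5 (log2 fold change 2.80 ± 0.24, adjusted p = 8.7e-10). Both rose without overlap.

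Genes of central carbon metabolism moved in both directions. Of 27 glycolysis genes 15 rose and 3 fell (median log2 fold change 0.39). Aldoc, an aldolase isoform, was at 0.109, 0.113 and 0.0535 FPKM at 12 h and 120.4, 87.8 and 63.5 FPKM at day 5 (log2 fold change 7.13 ± 0.25, adjusted p = 2.2e-16). Eno1, enolase, was at 799, 699 and 839 FPKM at 12 h and 2897, 2642 and 2842 FPKM at day 5 (log2 fold change 1.68 ± 0.13, adjusted p = 1.1e-10). Hk2, the inducible hexokinase, was at 73.2, 58.7 and 62.3 FPKM at 12 h and 44.2, 35.3 and 46.7 FPKM at day 5 (log2 fold change -0.79 ± 0.22, adjusted p = 0.0034). Of 23 genes of the tricarboxylic acid cycle 15 fell and 3 rose (-0.44), and 38 of 75 nuclear oxidative phosphorylation genes fell while 10 rose (-0.22). Under quantile normalization 26 of these 75 rose and 25 fell, so that their direction depended on the scaling. The 10 that rose were 5 without 12 h replicate 2 and 6 without 12 h replicate 1, day 5 replicate 2 or day 5 replicate 3. Mt1, a metallothionein that binds zinc, rose by 5.92 on the log2 scale and Txn2, mitochondrial thioredoxin, fell by 2.04.

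Genes of sterol synthesis rose, 20 of 25 being higher and none lower (median log2 fold change 0.88). When 12 h replicate 2 and day 5 replicate 3 were left out together 13 rose. Hmgcs1, which makes the HMG-CoA of the mevalonate pathway, was at 58.2, 27.5 and 56.8 FPKM at 12 h and 161, 156 and 177 FPKM at day 5 (log2 fold change 1.69 ± 0.24, adjusted p = 1.6e-06). Fdps, farnesyl diphosphate synthase, was at 72.8, 42.9 and 79.4 FPKM at 12 h and 243, 224 and 271 FPKM at day 5 (log2 fold change 1.79 ± 0.20, adjusted p = 6.5e-08). In both, 12 h replicate 2 was the lowest of the 6 libraries. When it and day 5 replicate 3 were left out, 13 of the 25 were called. Of 17 fatty acid genes 10 rose and 4 fell. Scd2, a stearoyl-CoA desaturase, was at 3.93, 2.30 and 3.34 FPKM at 12 h and 249, 193 and 196 FPKM at day 5 (log2 fold change 5.71 ± 0.27, adjusted p = 3.7e-14). Fads2, the delta-6 desaturase, was at 0.0418, 0.522 and 0.247 FPKM at 12 h and 83.4, 79.8 and 94.7 FPKM at day 5 (log2 fold change 6.76 ± 0.25, adjusted p = 4.2e-16). Fasn, fatty acid synthase, was at 301, 278 and 332 FPKM at 12 h and 135, 134 and 200.1 FPKM at day 5 (log2 fold change -1.15 ± 0.19, adjusted p = 1.2e-05). The groups did not overlap in any of these.

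Of 25 galectins, S100 proteins, annexins and related genes 23 rose, 21 of them at least 2-fold, and 1 fell (median log2 fold change 2.62). Anxa3, an annexin, was the one that fell, by 2.21 on the log2 scale. Vim, vimentin, was at 24.6, 83.2 and 20.9 FPKM at 12 h and 2097, 1926 and 1816 FPKM at day 5 (log2 fold change 5.60 ± 0.30, adjusted p = 2.4e-13). S100a10 was at 136, 82.2 and 113 FPKM at 12 h and 829, 844 and 526 FPKM at day 5 (log2 fold change 2.56 ± 0.21, adjusted p = 4.4e-10). Of 48 interferon response genes 33 rose and 2 fell (1.10). At 12 h replicate 2 was the highest library in 41 of the 48, and 35 of the 48 were called without it. Psmb9, a subunit of the immunoproteasome, was at 36.2, 56.5 and 29.4 FPKM at 12 h and 204, 198 and 189 FPKM at day 5 (log2 fold change 2.15 ± 0.14, adjusted p = 8.8e-12). Ifi27l2a was at 14.6, 24.8 and 10.6 FPKM at 12 h and 221, 225 and 190.1 FPKM at day 5 (log2 fold change 3.55 ± 0.39, adjusted p = 3.5e-08). In the BCL2 family 9 of 15 tested genes were higher and 6 lower, beside 35.8% and 37.6% of all genes. None of the 15 overlapped between stages. Of all genes 36.1% were higher and 37.2% lower without overlap. Bcl2a1d, an early survival gene, was at 80.3, 113 and 79.9 FPKM at 12 h and 4.79, 7.67 and 4.69 FPKM at day 5 (log2 fold change -4.06 ± 0.24, adjusted p = 1.6e-12). Bcl2l1, which encodes BCL-XL, was at 102, 84.9 and 92.5 FPKM at 12 h and 31.9, 36.5 and 42.0 FPKM at day 5 (log2 fold change -1.50 ± 0.21, adjusted p = 1.2e-06). These survival genes were thus lower at day 5, where Bcl2 was higher.

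Of 23 JAK, STAT and SOCS genes, which carry and restrain cytokine signals, 11 rose and 7 fell, beside 35.8% and 37.6% of all genes. Their log2 fold changes lay between -1.93 and 4.09. Cish, an inhibitor that IL-2 induces, was at 22.6, 21.1 and 9.13 FPKM at 12 h and 60.2, 91.6 and 60.5 FPKM at day 5 (log2 fold change 1.89 ± 0.34, adjusted p = 4.0e-05). Stat5a, which carries the IL-2 signal, was at 73.3, 76.7 and 63.9 FPKM at 12 h and 25.1, 24.4 and 29.1 FPKM at day 5 (log2 fold change -1.59 ± 0.11, adjusted p = 4.0e-11). Of 22 polycomb and DNA methylation genes 10 rose (45.5%) and 8 fell (36.4%). Ezh2, the methyltransferase of Polycomb repressive complex 2, was at 54.7, 54.3 and 53.2 FPKM at 12 h and 137, 147 and 125 FPKM at day 5 (log2 fold change 1.16 ± 0.15, adjusted p = 2.9e-07). Dnmt3a, a de novo DNA methyltransferase, was at 171, 241 and 197 FPKM at 12 h and 49.4, 58.3 and 59.1 FPKM at day 5 (log2 fold change -2.02 ± 0.12, adjusted p = 2.2e-12). Neither pair of groups overlapped. Among 38 PI3K, AKT and mTOR genes 17 rose and 11 fell, and among 32 genes of the unfolded protein response 12 rose and 14 fell. Among 34 redox genes 9 rose and 13 fell. Over all genes 35.8% rose and 37.6% fell. Of the unfolded protein response genes 6 rose when 12 h replicate 2 and day 5 replicate 3 were left out together. Of 12 mitochondrially encoded genes 6 rose and 1 fell. Those of the type 17 program had too few reads in 7 of 12 genes, and 1 of the 5 tested rose and 1 fell.

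**Figure D3:**
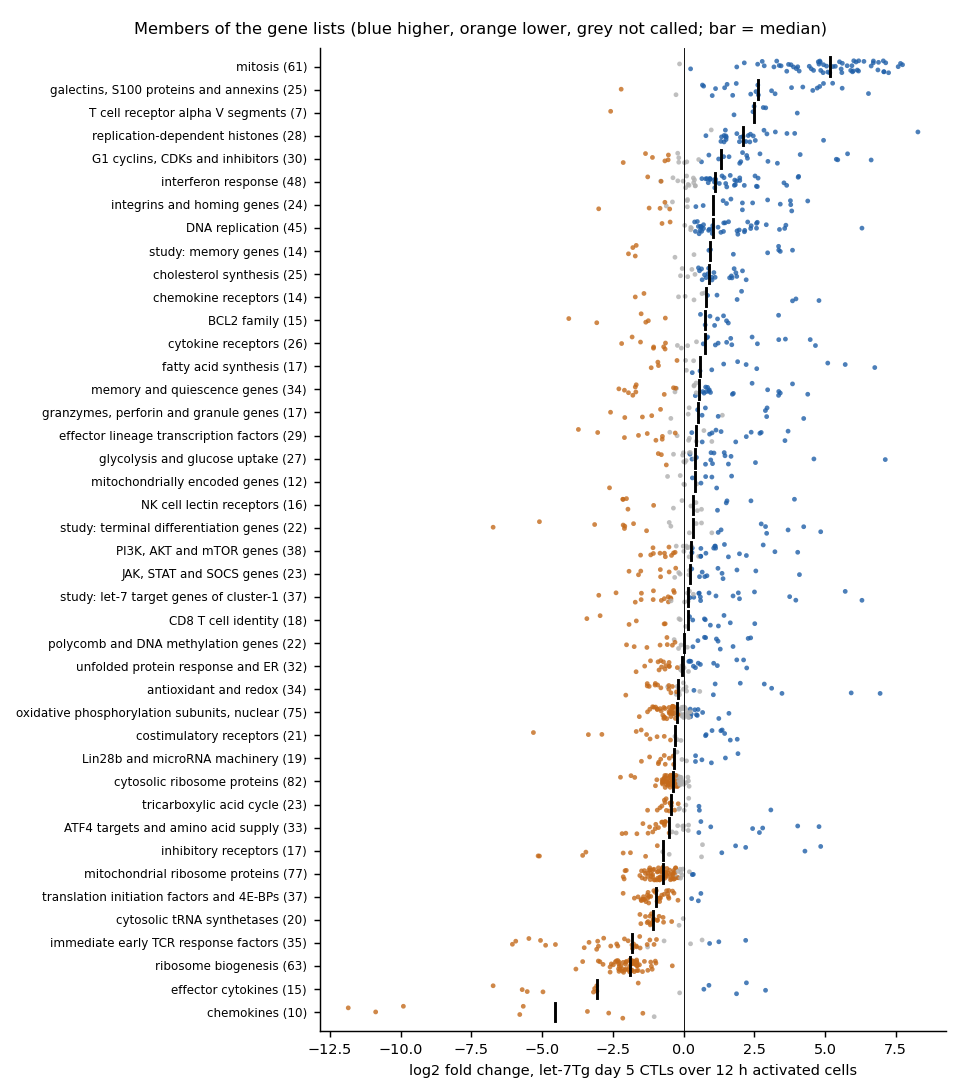
Log2 fold change from 12 h to day 5 in let-7Tg cells (horizontal axis) for the tested members of each gene list (rows, with the number tested), where blue points were higher at day 5, orange lower and grey not called, and the bar is the median. Mitosis genes stand at the top with a median of 5.16, and ribosome biogenesis (-1.90), cytokines (-3.06) and chemokines (-4.53) at the bottom.

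The alpha chain of the T cell receptor was lower at day 5. Trac, the constant region of the alpha chain, was at 1391, 954 and 1219 FPKM at 12 h and 452, 439 and 357 FPKM at day 5 (log2 fold change -1.67 ± 0.14, adjusted p = 8.0e-10). Trav14-1, a V alpha segment, was at 914, 593 and 676 FPKM at 12 h and 155, 149 and 105 FPKM at day 5 (log2 fold change -2.58 ± 0.23, adjusted p = 1.1e-09), and 6 other V alpha segments of the 109 could be tested. These 6 rose from at most 1.22 FPKM at 12 h to between 1.53 and 18.2 FPKM at day 5. Such segments could pass the filter on reads through the day 5 libraries alone, so that their direction is not independent of the filter. With no filter on low reads 10 V alpha segments rose and 3 fell. Rag2-/- cells do not rearrange receptor genes of their own. Trav14d-1, the highest of the 6, is a near copy of Trav14-1 and may share its reads. Trbc2 fell and Trbc1, the other beta constant region, was not called. Thy1 was at 156, 117 and 102 FPKM at 12 h and 763, 765 and 857 FPKM at day 5 (log2 fold change 2.52 ± 0.16, adjusted p = 4.9e-12). Zap70, the kinase that the receptor recruits, was at 658, 899 and 808 FPKM at 12 h and 234, 237 and 222 FPKM at day 5 (log2 fold change -1.93 ± 0.11, adjusted p = 4.3e-13). Their groups did not overlap. Of the 18 identity genes, 9 rose, 6 fell and 3 were not called.

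Because let-7 was induced throughout, the genes with let-7 sites were examined in the same comparison. Of 11503 tested genes with an annotated 3′ UTR (GENCODE M21, the longest of each gene), 421 (3.66%) held at least 1 CTACCTCA. Of these 421, 152 rose (36.1%) and 157 fell (37.3%), beside 36.1% and 39.1% of the 11503, and the median log2 fold changes were 0.00 and -0.03. The median 3′ UTR of the 421 was 2474 bases long against 1165 for all. These shares are close to those of all genes in both directions. The study lists 38 let-7 targets that it selected on these samples because lin28Tg cells had more and let-7Tg cells less of them. Of the 37 that were tested 16 rose and 15 fell, and 16 of the 37 held the site. Sites of 4 of these genes are given from GENCODE M21 (GRCm38), on the strand of the gene, because the genes moved in opposite directions, with CTACCTCA in capitals, whose last A lies opposite the first base of let-7 and outside the seed.
Ccr7, chr11:99144785-99144806, minus strand: catcccacttataaCTACCTCA
Bcl2l1, chr2:152781191-152781212, minus strand: ccccaggggcttccCTACCTCA
Rrm2, chr12:24713348-24713369, plus strand: aaaaagctgtgtagCTACCTCA
Tmed5, chr5:108122815-108122836, minus strand: cttgcactaccctgCTACCTCA
Ccr7 and Bcl2l1 fell, with log2 fold changes of -1.71 and -1.50, and Rrm2 and Tmed5 rose, with 6.30 and 0.90. Hmga1, a chromatin protein and a known let-7 target, was at 202, 224 and 243 FPKM at 12 h and 88.7, 77.0 and 102 FPKM at day 5 (log2 fold change -1.49 ± 0.11, adjusted p = 5.0e-11). Genes that act in the microRNA pathway gave 6 that rose (31.6%) and 10 that fell (52.6%) of 19 tested, beside 35.8% and 37.6% of all genes. Under the alternatives 4 to 7 rose and 8 to 11 fell. Tarbp2, a partner of Dicer, was at 51.6, 51.7 and 50.6 FPKM at 12 h and 38.3, 31.2 and 38.1 FPKM at day 5 (log2 fold change -0.68 ± 0.11, adjusted p = 5.0e-06).

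To set the let-7Tg cells beside the other genotypes, their change from 12 h to day 5 was set against that of WT cells and, separately, of lin28Tg cells, by the interaction in the same fit. Both tests use the same let-7Tg libraries and are not independent. A positive difference means that the log2 fold change was larger, that is more positive or less negative, in let-7Tg cells. Against WT, 213 genes differed, 148 with a larger change in let-7Tg cells (1.16% of those tested) and 65 with a smaller one (0.508%). Against lin28Tg, 2776 genes differed, 1735 larger (13.6%) and 1041 smaller (8.14%). Under quantile normalization the latter split was 1492 larger and 1520 smaller. At an unadjusted p below 0.05 the counts were 1644 against WT and 4223 against lin28Tg. The count against WT depended on single libraries, being 466 without WT day 5 replicate 3 and 71 without WT 12 h replicate 3.

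Mitosis genes stood out in both tests. Of the 61, 15 had a larger change in let-7Tg than in WT cells and 56 a larger change than in lin28Tg cells, with none smaller in either, and the median log2 fold change was 5.16 in let-7Tg, 4.40 in WT and 2.50 in lin28Tg cells. Top2a had log2 fold changes of 6.63 in let-7Tg, 4.81 in WT (difference 1.82 ± 0.36, adjusted p = 0.013) and 2.42 in lin28Tg cells (difference 4.21 ± 0.36, adjusted p = 2.9e-08). For Ccna2 the changes were 7.67, 5.99 and 2.89, and the difference from lin28Tg was 4.78. The genotypes differed more at 12 h than at day 5. At 12 h Ccna2 was at 1.66, 1.73 and 2.71 FPKM in WT and 14.7, 25.8 and 24.9 FPKM in lin28Tg libraries, while let-7Tg libraries lay below 1 FPKM. At day 5 it was at 162, 191 and 175 FPKM in WT and 207, 151 and 164 FPKM in lin28Tg libraries, beside 186, 206 and 195 FPKM in let-7Tg libraries. Replication genes followed, with 40 of 45 larger than in lin28Tg and 2 larger than in WT cells, beside 13.6% and 1.16% of all genes. Uhrf1, a partner of the maintenance DNA methyltransferase, had log2 fold changes of 2.37 in let-7Tg, 1.49 in WT and 0.00 in lin28Tg cells (difference 2.37 ± 0.30, adjusted p = 5.6e-06).

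**Figure D4:**
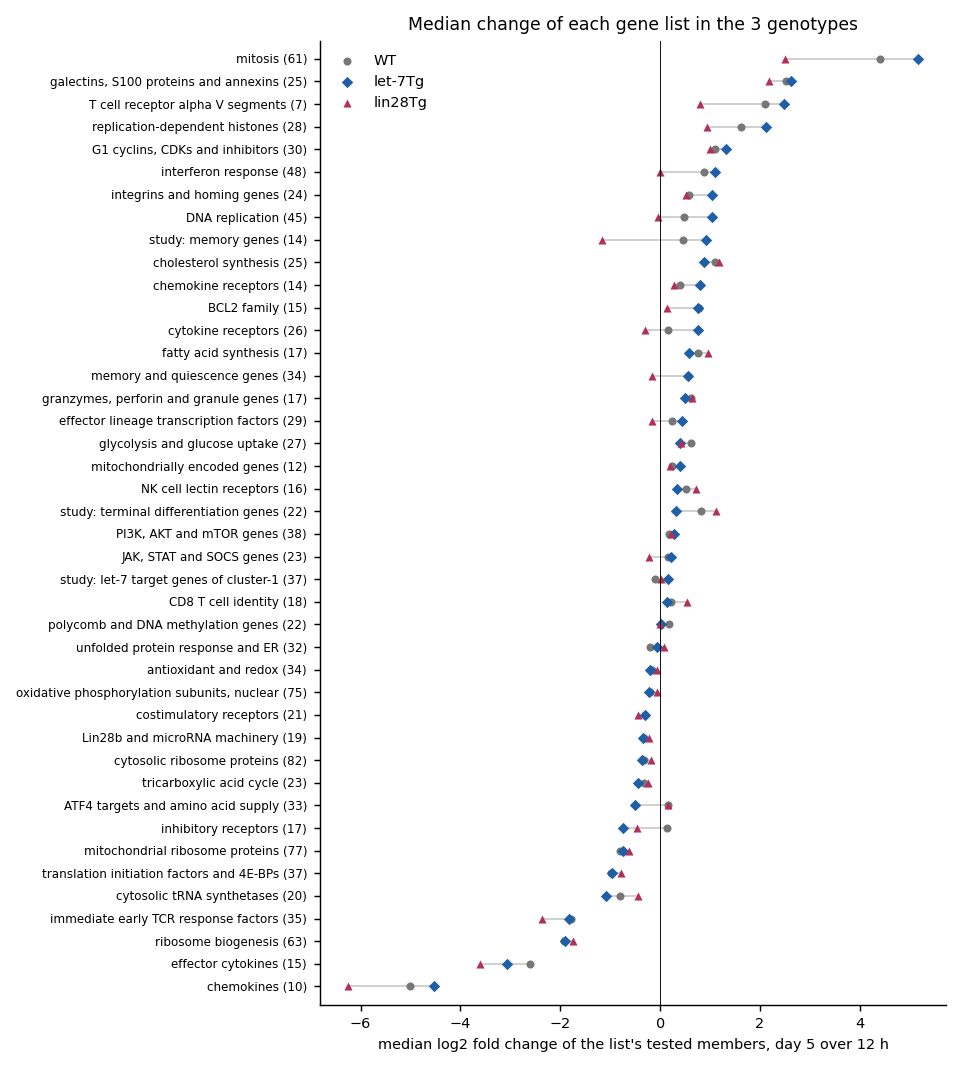
Median log2 fold change from 12 h to day 5 (horizontal axis) of the tested members of each gene list (rows, with their number) in WT (grey circles), let-7Tg (blue diamonds) and lin28Tg cells (red triangles). Ribosome biogenesis lies at about the same place in the 3 genotypes (-1.92, -1.90 and -1.75), and mitosis (4.40, 5.16 and 2.50) and the study's memory genes (0.46, 0.92 and -1.16) lie apart. The study chose its memory genes with these samples in view.

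Ribosome biogenesis gave 0 of 63 genes whose change was called different from WT or from lin28Tg cells by limma. At an unadjusted p below 0.05 there were 1 and 2, and voom on the recovered reads called 0. Of all genes 1.16% had a larger and 0.508% a smaller change against WT, so that 0 of 63 is near that share. Against lin28Tg the shares of all genes were 13.6% and 8.14%. Ncl had log2 fold changes of -1.73, -1.70 and -1.37 in let-7Tg, WT and lin28Tg cells. A p that misses the threshold does not show that the changes were equal.

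Of 34 memory and quiescence genes, 17 had a larger and 1 a smaller change in let-7Tg than in lin28Tg cells, beside 13.6% and 8.14% of all genes. The list holds the study's memory genes, which the study named as expressed in let-7Tg CTLs of these samples. The direction of these members is therefore no independent evidence. Against WT cells 3 had a larger change and none a smaller one, beside 1.16% and 0.508% of all genes. Tcf7 had log2 fold changes of 0.95 in let-7Tg, 0.37 in WT and -3.89 in lin28Tg cells (difference 4.84 ± 0.35, adjusted p = 3.9e-09). At day 5 it was at 237, 215 and 169 FPKM in let-7Tg, 159, 116 and 173 FPKM in WT and 8.60, 2.93 and 8.79 FPKM in lin28Tg libraries. The let-7Tg and lin28Tg values did not overlap, and WT replicate 3 lay within the let-7Tg range. Ccr7 was lower at day 5 in the 3 genotypes, with log2 fold changes of -1.71 in let-7Tg, -3.07 in WT and -7.16 in lin28Tg cells (difference 5.45 ± 0.37, adjusted p = 2.0e-09).

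Of the study's 22 tested terminal differentiation genes, 8 had a smaller change in let-7Tg than in lin28Tg cells and none a larger one, beside 8.14% and 13.6% of all genes. The study named these genes because lin28Tg CTLs of these samples expressed them, so that this direction is no independent evidence. Prf1 had log2 fold changes of -2.08 in let-7Tg, -2.20 in WT and 0.64 in lin28Tg cells (difference -2.72 ± 0.37, adjusted p = 1.3e-05), and it was at 171, 307 and 254 FPKM in the day 5 lin28Tg libraries. Those of Gzma were 4.24, 6.17 and 8.59 in the same order (difference -4.34 ± 0.96, adjusted p = 0.002 against lin28Tg). Those of Pdcd1 were -5.10, -3.80 and -2.04 (difference -3.05 ± 0.62, adjusted p = 0.001 against lin28Tg). Gzma at day 5 was at 4315, 6046 and 4371 FPKM in lin28Tg libraries against 78.2, 109 and 11.8 FPKM in let-7Tg libraries.

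Genes of the interferon response and of amino acid stress also differed. Interferon genes had a larger change in let-7Tg than in lin28Tg cells in 24 of 48 and a smaller one in 1, beside 13.6% and 8.14% of all genes. Ifi27l2a had log2 fold changes of 3.55 in let-7Tg, 1.30 in WT (difference 2.25 ± 0.55, adjusted p = 0.04) and -2.22 in lin28Tg cells (difference 5.77 ± 0.55, adjusted p = 1.2e-07). Of 33 ATF4 targets and amino acid genes 19 had a smaller change than in lin28Tg and 5 a smaller one than in WT cells, with 1 and none larger. Of all genes 8.14% had a smaller change than in lin28Tg and 0.508% a smaller one than in WT cells. Chac1, a glutathione-degrading enzyme that ATF4 induces, had log2 fold changes of 0.54 in let-7Tg, 2.57 in WT (difference -2.03 ± 0.33, adjusted p = 0.0046) and 2.62 in lin28Tg cells (difference -2.08 ± 0.33, adjusted p = 8.4e-05). Its call in let-7Tg cells themselves was lost without any 1 of 5 let-7Tg libraries (0.34 to 0.59), that is all but 12 h replicate 2.

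Of the genes with the smallest adjusted p, Ecm1, Jarid2 and Sult2b1 moved in let-7Tg cells against their direction in the other genotypes. Ecm1, a secreted matrix protein, was at 14.5, 28.7 and 12.3 FPKM at 12 h and 52.6, 64.0 and 20.5 FPKM at day 5 in let-7Tg cells (log2 fold change 1.06 ± 0.29, adjusted p = 0.0026), but at 9.84, 15.4 and 12.5 FPKM at 12 h and 3.73, 2.94 and 4.08 FPKM at day 5 in WT libraries (difference 2.90 ± 0.41, adjusted p = 0.0021). In let-7Tg cells 12 h replicate 2 exceeded day 5 replicate 3, so that its stages overlapped, and without that pair its log2 fold change was 1.85. Jarid2, an accessory subunit of Polycomb repressive complex 2, was at 38.3, 44.9 and 41.6 FPKM at 12 h and 35.9, 30.6 and 27.4 FPKM at day 5 (log2 fold change -0.58 ± 0.10, adjusted p = 1.3e-05). In WT cells it was at 31.2, 34.4 and 33.3 FPKM at 12 h and 49.5, 47.5 and 41.5 FPKM at day 5 (difference -0.88 ± 0.14, adjusted p = 0.003), and in lin28Tg cells at 29.7, 22.05 and 25.2 and 74.5, 68.8 and 77.6 FPKM (difference -1.98 ± 0.14, adjusted p = 2.0e-09). It therefore fell in let-7Tg cells without overlap between stages, while its day 5 values exceeded its 12 h values in every WT and lin28Tg library. Sult2b1, a sulfotransferase of cholesterol, was at 16.3, 22.7 and 12.7 FPKM at 12 h and 7.26, 8.13 and 5.32 FPKM at day 5 (log2 fold change -1.40 ± 0.28, adjusted p = 1.2e-04) in let-7Tg cells. In WT libraries Sult2b1 was at 17.6, 21.3 and 13.3 FPKM at 12 h and 42.0, 56.0 and 17.7 FPKM at day 5, so that the WT stages overlapped. In lin28Tg libraries it was at 17.5, 14.3 and 13.7 FPKM at 12 h and 119, 115 and 185 FPKM at day 5. At day 5 every WT and lin28Tg library lay above every let-7Tg library.

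**Figure D5:**
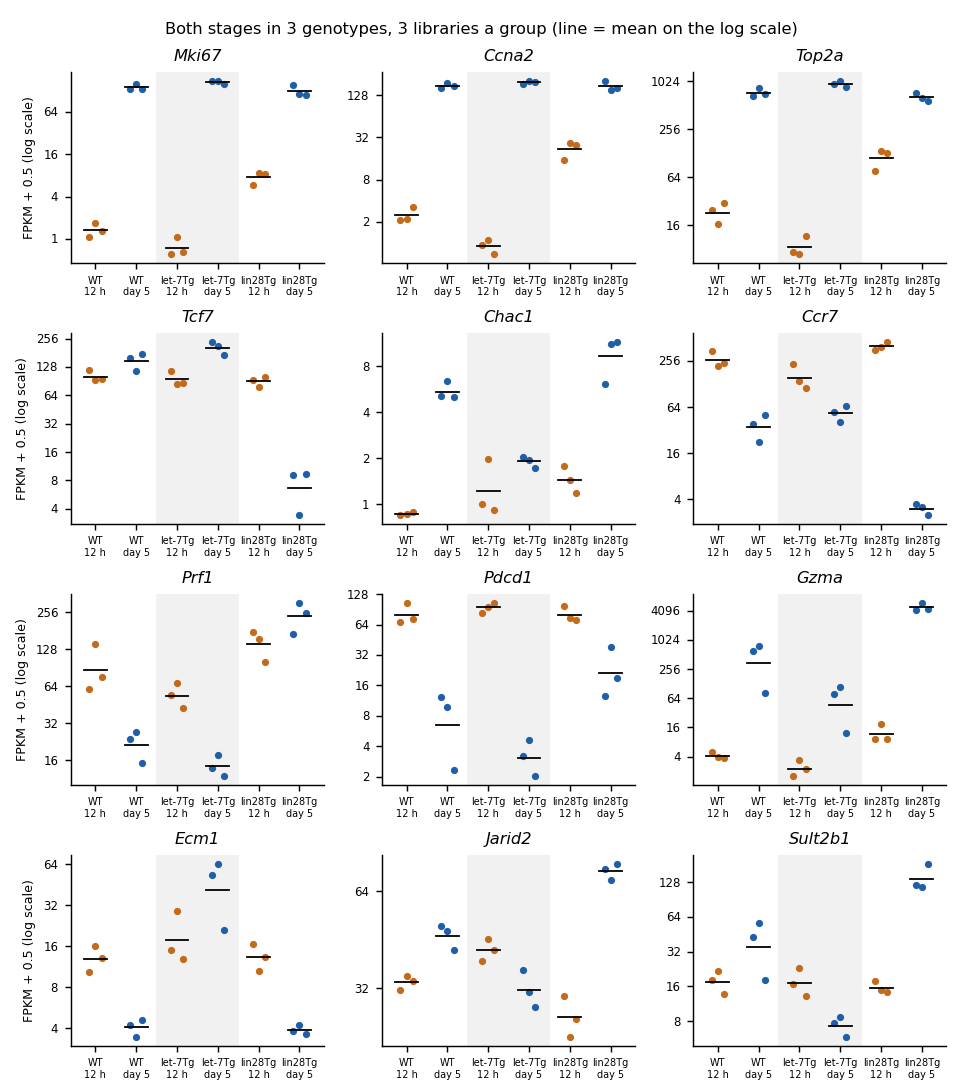
FPKM + 0.5 (log scale) of 12 genes in WT, let-7Tg (shaded) and lin28Tg libraries at 12 h (orange) and day 5 (blue), 3 libraries a group, with a line at the mean on the log scale. Mki67, Ccna2 and Top2a have their lowest 12 h means in let-7Tg libraries, Tcf7 and Ccr7 are lowest in lin28Tg libraries at day 5, and Jarid2 is lower at day 5 in let-7Tg libraries and higher at day 5 in the others.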

How the data were processed

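RNA-seq was deposited for naive, 12 h activated and day 5 CD8 T cells of 3 genotypes, and the 6 let-7Tg libraries of 12 h and day 5 are compared here. Reads were paired-end, and per the labels and the study's methods the authors aligned them to GRCm38/mm10 with TopHat 2.0.9 and Bowtie 2.0.6 and counted them with HTSeq 0.6.1. The annotation release and the use of strand are not given in the sources used here. The authors deposited FPKM values per gene and library (fragments per kilobase of exon, scaled to library depth), and the tables were joined by gene ID. The same tables hold the authors' group means, fold changes, p-values and a heatmap cluster, which were not used. Each library's FPKM values were whole multiples of what 1 read is worth, which gave back the reads (100.0% of 462839 values within 0.01 read), with totals of 13862706 to 23591069 over the 27 libraries.

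Genes with at least 10 reads in 3 of the 6 libraries and 15 in all were kept. Libraries were scaled by a trimmed mean of log ratios, trimming 30% of ratios and 5% of levels at each end. log2(FPKM + 0.5) was fitted with limma 3.58.1 in R 4.3.3, with a mean for each of the 9 groups over all 27 libraries and the variance prior following the mean level. Adjusted p is the Benjamini-Hochberg value over all 12787 genes, with a threshold of 0.05. Interactions were contrasts of the same fit. The fit was also run on simulated counts. Far fewer genes changed in them than here, so that they do not show how the fit performs on this comparison. Python 3.11.15, numpy 2.4.6, pandas 2.3.3, scipy 1.17.1 and matplotlib 3.10.9 were used for the rest. Reads limit the precision of low genes, and floors and intervals cover counting error only.

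The text names the 10 largest called changes in each direction among genes with non-overlapping libraries and at least 10 FPKM in the higher stage, up to 4 called members of each list in each direction by mean FPKM, genes that the study names, the 6 called genes in each direction of each interaction with the smallest adjusted p and at least 5 FPKM in some group, and markers. Some genes that these rules would name are not reported here. The comparison and the lists were chosen with earlier results of these data known. Alternatives were other scalings, pseudocounts of 0.1 and 1, other filters, a replicate block, voom on the recovered reads, a fit of the 6 libraries alone and leaving out libraries. Sequences are from RefSeq (GRCm38.p6) and GENCODE M21, and 34490 of 35275 gene IDs were in GENCODE M21.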

Additional observations from a re-analysis of the deposited data

Results flagged for a closer look

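Genes whose change from 12 h to day 5 differed between let-7Tg and WT cells numbered 213, and between let-7Tg and lin28Tg cells 2776, by the interaction test in limma. Among those with the smallest adjusted p against WT, the difference of log2 fold changes (let-7Tg minus WT) was 2.90 for Ecm1, 2.31 for Tg, which encodes thyroglobulin, 1.93 for Fsd1l, 1.63 for Amigo2, 2.04 for Tent5a and 0.737 for Ahcyl2. It was -0.800 for Lims1, -0.645 for Eci2, -0.876 for Jarid2, -2.03 for Chac1, -1.91 for Klhl30 and -2.22 for Sult2b1.

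Against lin28Tg (let-7Tg minus lin28Tg) the differences were 3.65 for E2f2, an activator of the cell cycle, 1.89 for Jade2, 4.78 for Ccna2, 5.45 for Ccr7, 4.61 for Pclaf and 4.84 for Tcf7. They were -1.98 for Jarid2, -3.70 for Klhl30, -4.42 for Sult2b1, -1.83 for Ctsd, the lysosomal protease cathepsin D, -4.08 for Dixdc1 and -1.19 for E330009J07Rik. Both sets of differences use the same let-7Tg libraries.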

How the results depend on the processing

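The call of 9388 genes between stages ranged over 8451 to 10205 under 12 other settings and 8808 to 9276 without 1 library, and that of 4257 genes with a 2-fold change over 3710 to 5002 and 4048 to 4551. No called gene turned its sign without 1 let-7Tg library, and 397 to 668 lost the call. The 213 genes that differed from WT were 139 with no filter on low reads, 107 by voom on the recovered reads and 71 to 466 without 1 library. They were 136 without WT 12 h replicate 1, 71 without WT 12 h replicate 3, 101, 89 and 466 without WT day 5 replicates 1, 2 and 3, and 89 and 95 without let-7Tg day 5 replicates 1 and 2. The 2776 that differed from lin28Tg ranged over 2505 to 3084 and 2336 to 2881. With 12 h replicate 2 and day 5 replicate 3 left out together, a choice made after seeing the data, the 4 counts were 9116, 4606, 206 and 3084. Of 321 called named genes 42 lost the call under some setting. Cox4i1 turned its sign under quantile normalization (0.00639). The cause of these changes was not tested. Counts of called members stayed within 1.5 times in 921 of 936 cases over 52 lists, and 9 lists had an exception, among them the cytosolic ribosome proteins, with 61 called and 40 in a fit of the 6 libraries alone.

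Deviations from the group means of same-numbered let-7Tg libraries of the 2 stages correlated at -0.101, 0.133 and 0.174. Those of let-7Tg libraries with unlike numbers ran from -0.241 to 0.188. With 3 libraries a group these values cannot show whether the replicate numbers pair the stages. With a replicate block 9271 genes were called between stages, 141 differed from WT and 2595 from lin28Tg. In a fit of the 6 libraries with the block, 8451 genes and 30 cytosolic ribosome proteins were called.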

Other observations

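Single libraries stood apart from their stage in a few genes. A gene was counted where 1 library lay more than 2 log2 units from the mean of the others of its stage, the others lay within 1.5 log2 units of each other and the gene was above 3 on the log2 scale, a rule chosen after the data were seen. Day 5 replicate 2 was low in 15 genes. These included Rrp1 (122, 7.92 and 148 FPKM in replicates 1, 2 and 3), Rrp9 (43.7, 10.5 and 84.4 FPKM), the chaperone Hsp90aa1 (612, 25.5 and 757 FPKM) and the ribosome protein gene Rpl12 (1765, 96.4 and 1678 FPKM). Replicate 2 at 12 h was high in 15 genes, among them Cxcl10 (6.69, 40.2 and 4.04 FPKM) and the class II gene H2-Aa (8.80, 34.3 and 7.37 FPKM). Day 5 replicate 3 was low in 8, among them Gzma. Xist, the transcript of the inactive X chromosome, was at 476, 0.205 and 0.146 FPKM at day 5 and the Y-linked gene Ddx3y at 0.0180, 36.4 and 29.6 FPKM, so that day 5 replicate 1 came from female and the others from male cells.

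Ighm and Cd79b, 2 of the 13 B cell markers, and the 6 tested V alpha segments outside the P14 receptor were higher at day 5. Of the other B cell markers 10 had too few reads to be tested, and Blk and Ms4a1 were at 0 in all day 5 libraries. Ighm was at 79.2, 37.3 and 59.4 FPKM at 12 h and 242, 205 and 173 FPKM at day 5, and 6 V alpha segments other than Trav14-1 were between 1.53 and 18.2 FPKM at day 5. These segments could pass the filter on reads through the day 5 libraries alone, so that their direction is not independent of the filter. The source of the reads of these genes and segments was not tested.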
